A study of Mus musculus with 15 samples.

Results

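The genes of MHC class II presentation were measured as 9 rows of a table of 56979 mouse gene identifiers, namely H2-Aa, H2-Ab1, H2-Eb1, H2-DMa, H2-DMb1, H2-DMb2, H2-Oa, Cd74 and Ciita. They were chosen by symbol, and each symbol matched a single identifier. Polyadenylated RNA of mouse bone marrow cells labelled wild type was sequenced in 15 libraries, 3 in each of 5 groups. The cells labelled BMDM, macrophages grown from bone marrow, comprised LPS_NZM (LPS with NZM), LPS and Control (vehicle). LPS, lipopolysaccharide, is a bacterial cell wall component to which macrophages respond through a Toll-like receptor. The cells labelled BMSC comprised Aged_NZM (H2HO with NZM) and Aged (H2HO), so both BMSC groups carry the H2HO treatment. NZM was given after the model drug. The labels explain neither NZM nor H2HO and give no dose, time, age, strain or sex. Cells given NZM alone, and BMSC left untreated, were not analysed here. Values are TPM, a share of each library's transcripts corrected for gene length, so that levels of different genes can be set side by side. What a replicate is (an animal, a culture or a repeated library) is not given, so the p-values reflect the spread among these libraries alone, and it may be technical.

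Class II molecules are dimers of an alpha and a beta chain that show peptides from the endosome to CD4+ T cells. H2-Aa and H2-Ab1 encode the chains of I-A, and H2-Eb1 encodes the beta chain of I-E. Cd74 encodes the invariant chain, which guides new class II molecules to the endosome and blocks their groove until it is cut down to a short fragment, CLIP. H2-DM, a dimer of the H2-DMa product with an H2-DMb1 or H2-DMb2 product, removes CLIP and lets other peptides bind, and H2-DO, whose alpha chain comes from H2-Oa, holds H2-DM back. Ciita encodes the coactivator that the promoter factors RFX, CREB and NF-Y recruit to class II genes, and its own transcription sets much of the class II level in macrophages.

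The promoter letters known to recruit this machinery are shown because H2-Eb1 and both H2-DMb genes share them, while their levels moved by different amounts. RefSeq promoters (build GRCm38.p6, 250 bases before each start) were at hand for 6 members with 7 starts, and H2-Ab1, Cd74 and Ciita are named only. The authors' values rest on GRCm39, so these coordinates are not those of their files. The letters searched on both strands were ACNGATG and CCAAT, which reads ATTGG on the opposite strand. ACNGATG is the core of the X box that RFX binds, and CCAAT is the core of the Y box bound by NF-Y. No letters were searched for CREB. The pair was ACNGATG followed 15 to 35 bases on by ATTGG. Each line runs 5′ to 3′ on the gene's strand, with both cores in capitals where they form the pair and ATTGG alone where they do not. The windows are H2-Eb1 at chr17:34305763-34305822 (plus strand), H2-DMb1 at chr17:34153085-34153144 (plus), H2-DMb2 at chr17:34145114-34145173 (plus), H2-Aa at chr17:34287857-34287916 (minus) and H2-Oa at chr17:34092291-34092350 (plus).
H2-Eb1: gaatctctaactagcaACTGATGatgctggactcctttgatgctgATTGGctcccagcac
H2-DMb1: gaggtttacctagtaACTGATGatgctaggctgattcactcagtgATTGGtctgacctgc
H2-DMb2: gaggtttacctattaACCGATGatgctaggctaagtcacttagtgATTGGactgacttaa
H2-Aa: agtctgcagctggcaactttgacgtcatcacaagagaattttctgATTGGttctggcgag
H2-Oa: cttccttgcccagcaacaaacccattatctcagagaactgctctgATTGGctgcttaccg

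The pair stood in 3 of the 7 member starts, those of H2-Eb1, H2-DMb1 and H2-DMb2, with 22 bases between the cores in H2-Eb1 and 23 in both H2-DMb genes. On either strand, ACNGATG stood in 5 of the 7 starts and CCAAT in 6. H2-Aa and H2-Oa thus also held ACNGATG, but not as part of the pair. ATTGG began 59 bases before the start of H2-Eb1, 61 before H2-DMb1, 90 before H2-DMb2, 48 before H2-Aa and 43 before H2-Oa. The windows of H2-DMb1 and H2-DMb2 had 51 of 60 bases the same. Of all 32851 promoters in the table, 8.31% held ACNGATG, 33.8% held CCAAT and 0.164% (54 promoters) held the pair. Among 35 promoters of genes whose symbol begins with H2-, 9 held the pair (25.7%), against 45 of 32816 others (0.137%). These 9 were H2-Eb1, H2-Eb2, H2-DMb1, H2-DMb2 and the class I genes H2-D1, H2-M3, H2-Q4, H2-Q6 and H2-Q7, which are related in sequence. The H2-DMa starts had no pair, and 1 of its 2 starts held CCAAT. A match describes letters and is not a binding site, and a missing match says only that these letters are not in this window.

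Each library listed 21360 to 23398 identifiers above 0. The table holds no counts, so the depth behind each value is unknown. The BMDM libraries held the macrophage markers Adgre1 (687 to 1107 TPM) and Csf1r (610 to 1288 TPM) and also the stromal gene Col1a1 (983 to 1368 TPM). In the BMSC libraries Adgre1 read 0 to 0.03 TPM and Col1a1 297 to 903 TPM. Other markers of the stromal list went either way. Dcn read 78.1 to 106 TPM in BMDM and 1496 to 2171 TPM in BMSC, and Pdgfra 5.06 to 7.16 TPM and 88.4 to 216 TPM. Cxcl12 and Col3a1 were also higher in BMSC. Lepr was higher in BMDM (2.83 to 5.14 TPM) than in BMSC (0.18 to 0.64 TPM), and the rest of the list overlapped. Control replicate 3 stood apart in LPS-induced genes, named here after their values were seen. Il1b, an inflammatory cytokine gene, read 5437 to 5589 TPM in LPS, and 2.77, 0.94 and 33.9 TPM in Control replicates 1 to 3. Without that library the members called in each BMDM comparison with Control numbered the same as with it. In such bulk samples, fewer cells of a type and less RNA per cell cannot be told apart.

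Class II chain genes were abundant in BMDM in every group. H2-Aa (ENSMUSG00000036594) read 258, 246 and 252 TPM in LPS_NZM, 203, 188 and 192 TPM in LPS, and 212, 211 and 214 TPM in Control. The 3 groups did not overlap for H2-Aa, with LPS_NZM highest and LPS lowest. H2-Ab1 (ENSMUSG00000073421) read 231, 242 and 218 TPM in LPS_NZM, 197, 205 and 214 TPM in LPS, and 188, 184 and 196 TPM in Control. These groups lay close together without overlapping, and here Control was lowest. H2-Eb1 (ENSMUSG00000060586) read 183, 172 and 171 TPM in LPS_NZM, 136, 142 and 149 TPM in LPS, and 147, 155 and 149 TPM in Control, where LPS and Control overlapped. Together the 3 chain genes averaged 657 ± 16.2 TPM in LPS_NZM, 542 ± 11.1 TPM in LPS and 552 ± 6.45 TPM in Control (SD, n = 3 each). Of other chains, H2-Ea, the alpha chain gene of I-E, stayed at 0 to 0.45 TPM and H2-Eb2 at 0.06 to 0.40 TPM across the 9 BMDM libraries, so neither was tested.

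Cd74 (ENSMUSG00000024610) had the highest level of the 9 genes in every BMDM library. It read 693, 699 and 679 TPM in LPS_NZM, 511, 528 and 536 TPM in LPS, and 498, 558 and 539.95 TPM in Control. The LPS_NZM libraries stood above all others, and LPS and Control overlapped.

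The H2-DM genes spread far more between groups than the chains they serve. H2-DMa (ENSMUSG00000037649) read 100.2, 91.7 and 96.0 TPM in LPS_NZM, 15.7, 17.0 and 13.0 TPM in LPS, and 33.0, 29.2 and 32.8 TPM in Control. H2-DMb1 (ENSMUSG00000079547) read 73.8, 84.0 and 81.1 TPM in LPS_NZM, 23.0, 30.7 and 28.5 TPM in LPS, and 52.1, 48.6 and 50.7 TPM in Control. H2-DMb2 (ENSMUSG00000037548) followed at a lower level, with 9.79, 9.11 and 9.20 TPM in LPS_NZM, 1.12, 1.48 and 1.37 TPM in LPS, and 4.11, 3.14 and 3.03 TPM in Control. For each of the 3 genes every LPS library lay below every Control library and every LPS_NZM library above both. Summed, they averaged 185 ± 1.26 TPM in LPS_NZM, 43.9 ± 4.82 TPM in LPS and 85.6 ± 4.24 TPM in Control (SD, n = 3 each). H2-DMb1 and H2-DMb2 are close copies, so how reads were divided between them is uncertain, but their sum shows the same order (89.0 ± 4.90 TPM in LPS_NZM, 28.7 ± 4.17 TPM in LPS and 53.9 ± 2.23 TPM in Control). In RefSeq's annotation the span of H2-DMa overlaps that of Brd2, a chromatin reader gene. Brd2 read 168 to 170.0 TPM in LPS_NZM, 185 to 187 TPM in LPS and 148 to 156 TPM in Control, which is another order of groups than that of H2-DMa.

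H2-Oa (ENSMUSG00000024334) lay near 1 TPM. It read 0.98, 0.78 and 0.41 TPM in LPS_NZM, 1.19, 0.93 and 1.46 TPM in LPS, and 1.85, 0.68 and 0.96 TPM in Control, and the groups overlapped. Ciita (ENSMUSG00000022504) read 4.58, 4.56 and 5.23 TPM in LPS_NZM, 1.5, 1.05 and 1.56 TPM in LPS, and 1.16, 1.11 and 0.84 TPM in Control. Its LPS_NZM libraries stood apart from the other 6, which overlapped. The span of Ciita overlaps that of Dexi, which read 7.86 to 11.2 TPM in LPS_NZM, 5.11 to 7.23 TPM in LPS and 7.04 to 10.4 TPM in Control. Whether reads were counted by strand is not given in the sources used here.

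**Figure D1:**
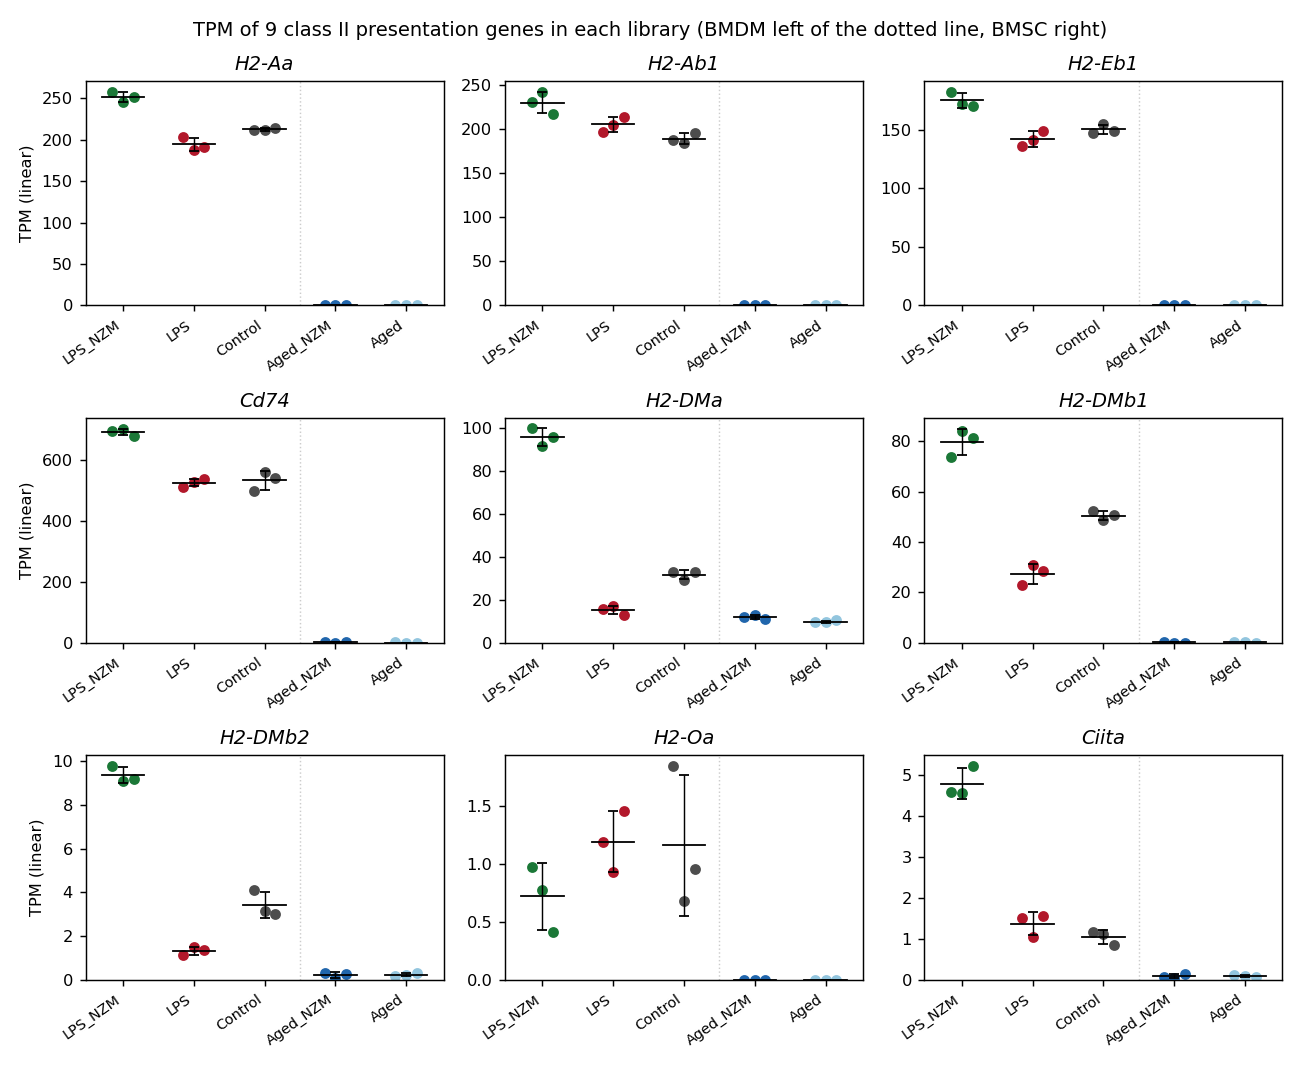
TPM of each of the 9 genes in every library (points), with mean and SD (bars, n = 3), on linear axes that start at 0. Groups run from LPS_NZM, LPS and Control (BMDM) to Aged_NZM and Aged (BMSC). The H2-DM genes and Ciita separate LPS_NZM from the other BMDM groups by more than the chain genes and Cd74 do, and in BMSC only H2-DMa stands clearly above 0 (9.45 to 12.8 TPM).

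The order of the genes by level was Cd74, H2-Aa, H2-Ab1, H2-Eb1, H2-DMa, H2-DMb1, H2-DMb2, Ciita and H2-Oa in LPS_NZM, with no overlap between neighbours. In Control H2-DMb1 (50.5 ± 1.76 TPM) stood above H2-DMa (31.7 ± 2.17 TPM), and Ciita (1.04 ± 0.172 TPM) was not apart from H2-Oa (1.16 ± 0.611 TPM). In LPS, H2-Ab1 (206 ± 8.61 TPM) and H2-Aa (194 ± 7.93 TPM) overlapped, H2-DMb1 (27.4 ± 3.99 TPM) again stood above H2-DMa (15.2 ± 2.05 TPM), and Ciita, H2-DMb2 and H2-Oa all lay between 0.93 and 1.56 TPM.

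LPS against Control asks what the model drug did to BMDM. The 3 H2-DM genes fell, to between 0.386 and 0.543 times the mean TPM of Control, while the chains and Cd74 stood at 0.915 to 1.09 times. Changes are given as the log2 change of TPM + 1, which understates the change of low genes, and a gene counts as called at limma's Benjamini-Hochberg adjusted p under 0.05 over all 14486 genes tested. H2-DMa changed by -1.02 (SE 0.0889, adjusted p = 2.26e-06), with a mean TPM in LPS of 0.480 times that in Control. H2-DMb1 changed by -0.87 (SE 0.0933, adjusted p = 1.09e-05) and H2-DMb2 by -0.92 (SE 0.114, adjusted p = 3.01e-05). H2-Aa was lower by a small step (-0.13, adjusted p = 0.00507), and H2-Ab1 was higher (0.12, adjusted p = 0.0366). H2-Eb1 (-0.08, adjusted p = 0.0975), Cd74 (-0.02, adjusted p = 0.683), Ciita (0.22, adjusted p = 0.142) and H2-Oa (0.05, adjusted p = 0.839) did not pass.

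In all, 1 of the 9 was called higher and 4 lower, beside 80.8% of all tested genes called (15.2% higher and 65.6% lower), so being called says little in this comparison. The median log2 change was -0.08 over the members and -0.48 over all tested genes. TPM are shares, and a few genes that rise steeply lower the share of all others, so each change was also computed after every library was centred on the median of its tested genes. On that scale 6 members were called higher and 3 lower, beside 65.5% of all genes called (36.5% higher and 29.1% lower). H2-DMa (-0.47, adjusted p = 0.0011), H2-DMb1 (-0.32, adjusted p = 0.012) and H2-DMb2 (-0.38, adjusted p = 0.0146) remained lower. H2-Aa (0.42), H2-Ab1 (0.66), H2-Eb1 (0.47), Cd74 (0.53), H2-Oa (0.60) and Ciita (0.76) were then higher. H2-Oa averaged 1.19 TPM in LPS and 1.16 TPM in Control, so its change after centring was almost all that of the scale. H2-Aa, H2-Eb1 and Cd74 thus turned with the scale, while H2-Ab1, H2-Oa and Ciita had positive changes on both. Under quantile normalization, another scaling, H2-Aa and the H2-DM genes were again lower. H2-Eb1 (-0.14, adjusted p = 0.0102) and Cd74 (-0.30, adjusted p = 1.51e-04) were then also lower. Ciita was higher (0.53, adjusted p = 0.00369) and H2-Ab1 was not called (-0.028). The call of H2-Ab1 was lost without LPS replicate 2 (adjusted p = 0.0753) or 3 (0.132) and without Control replicate 1 (0.0814) or 2 (0.109). Ciita was called without LPS replicate 2 (0.32, adjusted p = 0.0493), and H2-Eb1 without LPS replicate 3 (-0.11, adjusted p = 0.0315).

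**Figure D2:**
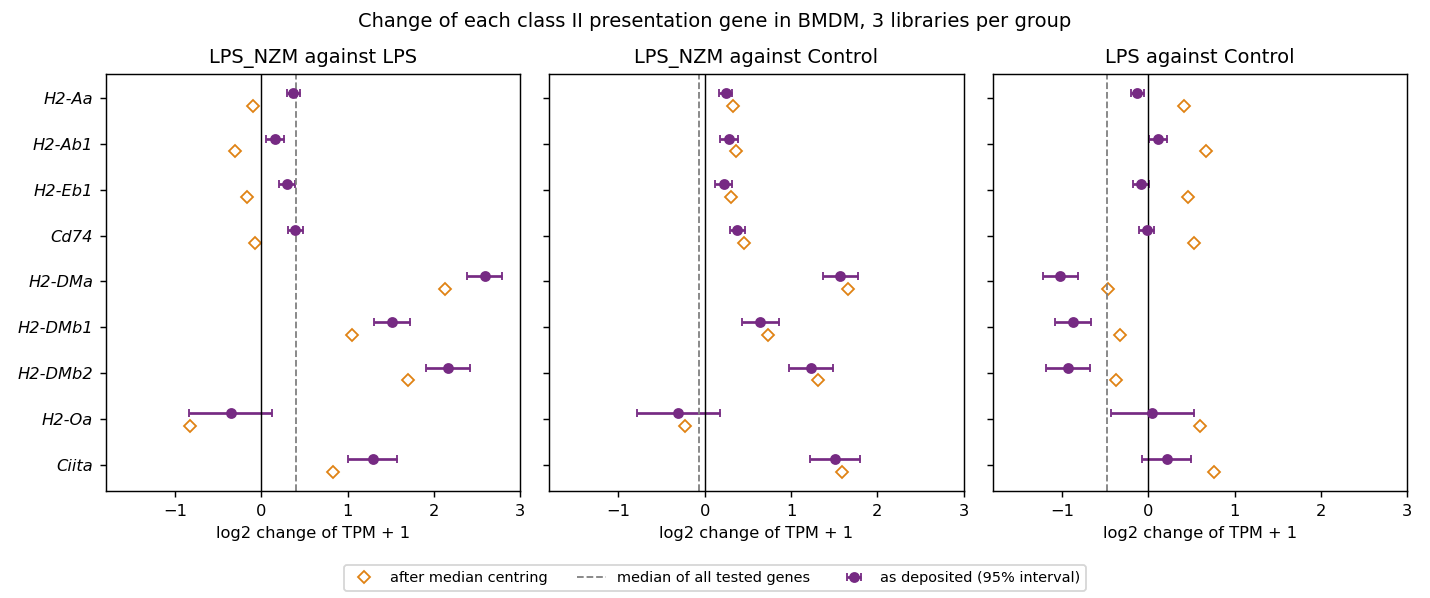
Log2 change of TPM + 1 of each gene in the 3 BMDM comparisons, as deposited (filled points with 95% intervals) and after median centring (open diamonds), with the median of all tested genes as a dashed line. H2-DMa, H2-DMb1, H2-DMb2 and Ciita keep positive changes on both scales in LPS_NZM against LPS, whereas H2-Aa, H2-Ab1, H2-Eb1 and Cd74 lie at 0.16 to 0.40 as deposited and at -0.30 to -0.07 after centring.

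LPS_NZM against LPS asks what NZM changed in BMDM that had received LPS, and it shares the LPS libraries with the comparison before it. H2-DMa had 6.32 times the mean TPM of LPS in LPS_NZM, H2-DMb2 7.08 times, Ciita 3.50 times and H2-DMb1 2.91 times, while the chains and Cd74 had 1.12 to 1.32 times. H2-DMa changed by 2.59 (SE 0.0889, adjusted p = 1.89e-09), H2-DMb2 by 2.16 (SE 0.114, adjusted p = 4.66e-08) and H2-DMb1 by 1.51 (SE 0.0933, adjusted p = 1.59e-07). Ciita rose by 1.29 (SE 0.127, adjusted p = 5.78e-06). Cd74 rose by 0.40 (adjusted p = 7.13e-06), H2-Aa by 0.37 (adjusted p = 2.99e-06), H2-Eb1 by 0.30 (adjusted p = 8.18e-05) and H2-Ab1 by 0.16 (adjusted p = 0.00847). H2-Oa did not pass (-0.36, adjusted p = 0.158).

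Thus 8 of 9 were called higher and 0 lower, a count that is the same at an unadjusted p under 0.05, beside 77.3% of all tested genes called (60.4% higher and 16.9% lower). The median change was 0.40 over the members and 0.40 over all tested genes. After centring, 4 members were called higher and 3 lower, beside 65.1% of all genes (29.8% higher and 35.3% lower). The 4 were H2-DMa (2.12, adjusted p = 1.27e-08), H2-DMb2 (1.70, adjusted p = 4.66e-07), H2-DMb1 (1.05, adjusted p = 4.01e-06) and Ciita (0.83, adjusted p = 1.94e-04). The 3 were H2-Ab1 (-0.30, adjusted p = 7.85e-04), H2-Eb1 (-0.17, adjusted p = 0.00927) and H2-Oa (-0.82, adjusted p = 0.00882). H2-Oa lay at 0.41 to 1.46 TPM in these libraries with overlapping groups. Centring moved it by the same step as abundant genes, so little is read from its call. H2-Aa (-0.09, adjusted p = 0.0582) and Cd74 (-0.07, adjusted p = 0.176) were not called. The H2-DM genes and Ciita therefore were higher on both scales, and the chains and Cd74 were higher as deposited and not after centring. Under quantile normalization H2-Aa, H2-Ab1, H2-Eb1 and Cd74 were again called higher, so the ways of scaling differed for these genes.

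LPS_NZM against Control asks how far BMDM given both agents differed from vehicle. All 8 members other than H2-Oa were higher on both scales, beside 47.7% of all tested genes called as deposited (18.6% higher and 29.1% lower) and 47.0% after centring (24.9% higher and 22.0% lower). H2-DMa had 3.03 times the mean TPM of Control (log2 change 1.57, SE 0.0889, adjusted p = 3.94e-07) and Ciita 4.62 times (1.51, SE 0.127, adjusted p = 7.58e-06). H2-DMb2 changed by 1.24 (adjusted p = 1.46e-05) and H2-DMb1 by 0.65 (adjusted p = 3.17e-04). Cd74 (0.38, adjusted p = 3.85e-05), H2-Ab1 (0.28, adjusted p = 7.19e-04), H2-Aa (0.24, adjusted p = 2.34e-04) and H2-Eb1 (0.22, adjusted p = 0.00181) were higher by smaller steps. H2-Oa did not pass (-0.31, adjusted p = 0.277). The median change was 0.38 over the members and -0.07 over all tested genes.

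Ratios of members within a library do not depend on the scale between libraries. The ratio of H2-DMa to H2-Ab1 was 0.433, 0.379 and 0.441 in LPS_NZM, 0.0794, 0.0827 and 0.0605 in LPS, and 0.176, 0.158 and 0.167 in Control. The groups did not overlap, so the gene of the peptide editor stood highest beside that of its client chain in LPS_NZM and lowest in LPS. The log2 ratio differed by 2.5 for LPS_NZM minus LPS, by 1.32 for LPS_NZM minus Control and by -1.18 for LPS minus Control. H2-DMa over the sum of H2-DMb1 and H2-DMb2 was 1.20, 0.985 and 1.06 in LPS_NZM, 0.650, 0.527 and 0.434 in LPS, and 0.587, 0.563 and 0.610 in Control. Here LPS_NZM stood above both other groups, which overlapped, so the alpha chain gene stood higher relative to its partners in LPS_NZM. H2-DMb2 over H2-DMb1 was 0.133, 0.108 and 0.113 in LPS_NZM, 0.0488, 0.0482 and 0.0481 in LPS, and 0.0789, 0.0646 and 0.0598 in Control. These close copies did not overlap between groups, within the doubt about their reads.

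Cd74 over H2-Ab1 averaged 3.0 ± 0.117 in LPS_NZM, 2.55 ± 0.0473 in LPS and 2.81 ± 0.191 in Control (SD, n = 3 each). H2-Aa over H2-Ab1 averaged 1.10 ± 0.0729 in LPS_NZM, 0.947 ± 0.0737 in LPS and 1.12 ± 0.0271 in Control. H2-Eb1 over H2-Ab1 averaged 0.762 ± 0.0438 in LPS_NZM, 0.692 ± 0.00315 in LPS and 0.795 ± 0.0411 in Control. All 3 means were lowest in LPS. In 18 two-sided exact permutation tests of log2 ratios, 13 reached p = 0.1, the smallest that 3 against 3 libraries allow, and their Benjamini-Hochberg value was 0.138. No ratio can pass 0.05 in this design. The ratio of H2-Oa to H2-DMa was not computed because H2-Oa fell under 1 TPM in several libraries.

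**Figure D3:**
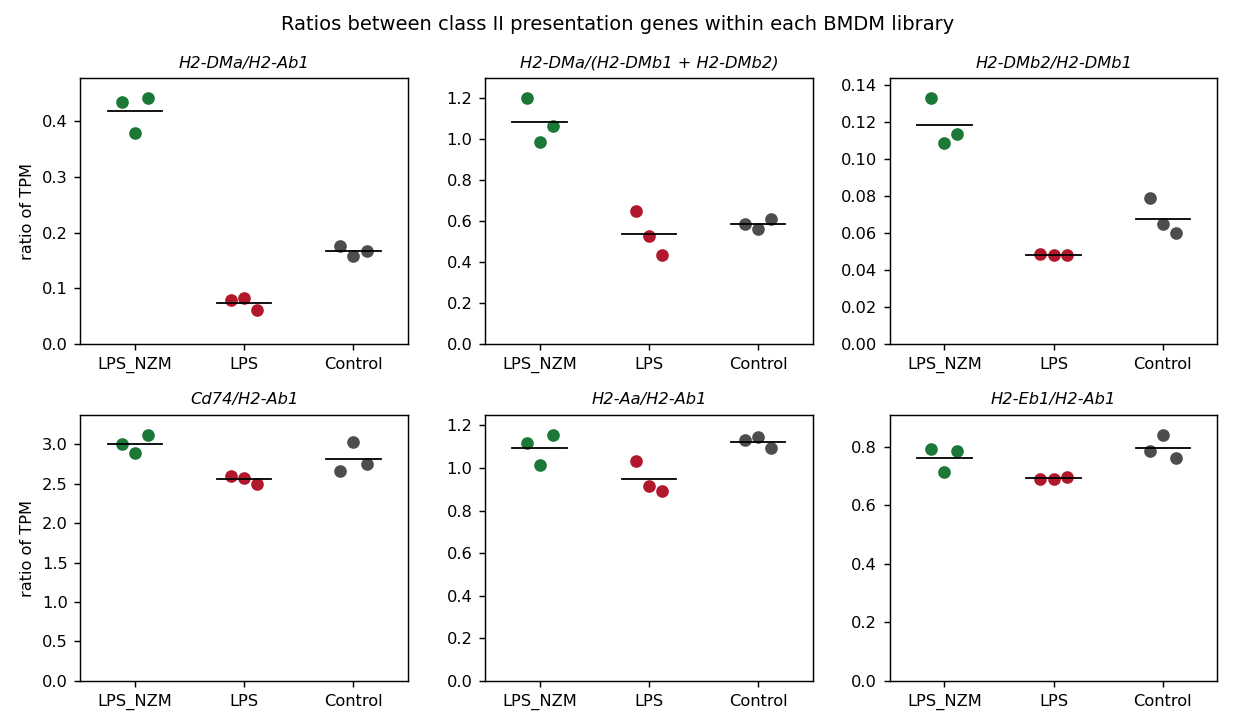
Ratio of TPM between members within each BMDM library (points) with the mean of 3 libraries (line), for LPS_NZM, LPS and Control. H2-DMa over H2-Ab1 separates the 3 groups (0.379 to 0.441 in LPS_NZM, 0.0605 to 0.0827 in LPS and 0.158 to 0.176 in Control), whereas the ratios among chain genes and Cd74 stay closer together.

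Other genes of the pathway were read from lists chosen with earlier results of these data known. Their counts stand beside the shares of all tested genes called. In LPS_NZM against LPS these shares were 60.4% higher and 16.9% lower (29.8% and 35.3% after centring). In LPS against Control they were 15.2% and 65.6% (36.5% and 29.1%), and in LPS_NZM against Control 18.6% and 29.1% (24.9% and 22.0%). Of 20 transcription factors and upstream genes, 9 were higher and 9 lower in LPS_NZM against LPS (5 and 11 after centring), with a median log2 change of 0.04 against 0.40 over all tested genes. Irf4, a factor of B cells and alternatively activated macrophages, averaged 14.5 TPM in LPS_NZM, 0.97 TPM in LPS and 1.07 TPM in Control (2.97 in LPS_NZM against LPS, adjusted p = 2.5e-08). Jak2, a kinase of the interferon gamma receptor, changed by -1.51 and Ifngr1, a receptor chain, by 1.36. Rfxank, a subunit of RFX, changed by 1.05 (0.59 after centring). Ifng itself stayed at 0 to 0.19 TPM in the 9 libraries and was not tested.

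In LPS against Control the same list had 10 higher and 9 lower (13 and 6 after centring), among them Socs1, a brake on interferon signalling (3.47), Jak2 (3.17), Irf1 (1.36) and Ifngr1 (-1.29). In LPS_NZM against Control it had 9 higher and 5 lower (11 and 5 after centring), among them Socs1 (3.96), Irf4 (2.92), Jak2 (1.66) and Irf1 (1.05). H2-Ob, the beta chain gene of H2-DO, averaged 2.68 TPM in LPS_NZM, 1.16 TPM in LPS and 1.54 TPM in Control. It was higher in LPS_NZM than in LPS as deposited (0.75, adjusted p = 0.00185) and not called after centring (0.29), and higher in LPS_NZM than in Control (0.53, adjusted p = 0.0239).

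Endosomal processing genes make the peptides and cut the invariant chain. In LPS_NZM against LPS, 11 of 12 were higher and 1 lower (4 and 5 after centring). The median of 0.38 lay beside 0.40 over all tested genes, of which 60.4% were higher, so the median of the list was close to that of all genes. Ifi30, a thiol reductase that unfolds antigens, averaged 352 TPM in LPS_NZM, 105 TPM in LPS and 268 TPM in Control (1.74 in LPS_NZM against LPS, adjusted p = 1.11e-11). Lgmn, an endosomal protease, changed by 1.10, and the cathepsin genes Ctsd and Ctsl by 0.84 and 0.76. The exception was Sppl2a, the protease that clears the last stub of the invariant chain, at 87.2 TPM in LPS_NZM, 201 TPM in LPS and 93.2 TPM in Control (-1.20, adjusted p = 6.48e-09). In LPS against Control 2 were higher and 9 lower (7 and 5 after centring), led by Ctsl (-1.77), Ctsd (-1.37), Ifi30 (-1.34), Sppl2a (1.10) and Lgmn (-1.0). In LPS_NZM against Control 3 were higher and 4 lower (6 and 4 after centring), led by Ctsl (-1.01), Ctsz (0.78), Ctsd (-0.53), Ifi30 (0.39) and Ctsh (-0.31).

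Among turnover genes and surface partners, Marchf1, a ubiquitin ligase that sends class II molecules from the surface to degradation, averaged 35.7 TPM in LPS_NZM, 266 TPM in LPS and 27.1 TPM in Control. It was higher in LPS than in Control (3.25, adjusted p = 1.66e-11) and lower in LPS_NZM than in LPS (-2.87, adjusted p = 3.91e-11). Its relative Marchf8 ran the other way, with 103 TPM in LPS_NZM, 53.0 TPM in LPS and 109.8 TPM in Control (0.95 in LPS_NZM against LPS, adjusted p = 9.0e-08). Cd83, whose product opposes Marchf1, averaged 19.4 TPM in LPS_NZM, 9.31 TPM in LPS and 2.81 TPM in Control, so it stood highest in LPS_NZM. Of the 9 genes, 7 were higher and 2 lower in LPS_NZM against LPS (4 and 3 after centring), 4 and 5 in LPS against Control (6 and 3), and 5 and 1 in LPS_NZM against Control (6 and 0). The median change was 0.47 in LPS_NZM against LPS and -0.37 in LPS against Control, beside 0.40 and -0.48 over all tested genes. Of all tested genes 60.4% were called higher in the first and 65.6% lower in the second. The medians of this list were thus close to those of all genes. Its counts were not all so, with 4 of 9 higher in LPS against Control beside 15.2% of all tested genes. In LPS_NZM against Control 5 of 9 were higher beside 18.6%.

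Class I genes, set beside class II as the other presentation route, took the opposite course to the H2-DM genes. All 9 were lower in LPS_NZM against LPS and all 9 higher in LPS against Control, on both scales. Of all tested genes 16.9% were lower in the first and 15.2% higher in the second (35.3% and 36.5% after centring). The median change was -1.27 in LPS_NZM against LPS and 1.46 in LPS against Control, beside 0.40 and -0.48 over all tested genes. Nlrc5, the class I relative of Ciita, averaged 12.7 TPM in LPS_NZM, 116 TPM in LPS and 19.5 TPM in Control. Its change in LPS_NZM against LPS was -3.10 (adjusted p = 3.56e-12), where that of Ciita was 1.29. Tap1, a subunit of the peptide transporter, changed by -2.30, Tap2 by -1.67, Tapbp, the loading factor tapasin, by -1.41, and Psmb9, an immunoproteasome subunit, by -1.27. In LPS_NZM against Control 6 were higher and 2 lower (6 and 1 after centring), led by Nlrc5 (-0.58), Psmb8 (0.25) and the class I heavy chain gene H2-K1 (0.23).

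**Figure D4:**
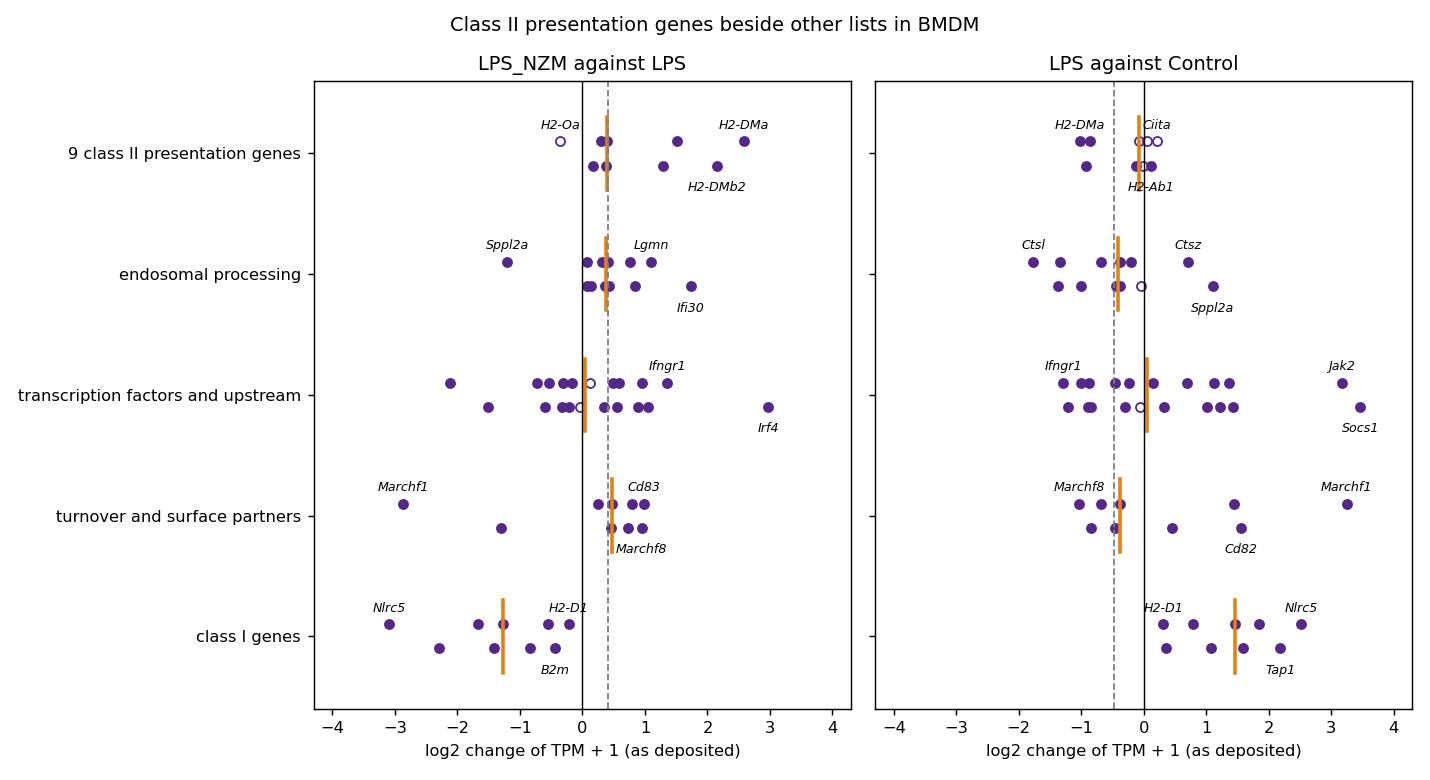
Log2 change of TPM + 1, as deposited, of every tested gene of 5 lists (filled when called, open when not) in LPS_NZM against LPS and LPS against Control, with each list's median (orange bar) and the median of all tested genes (dashed line). All 9 class I genes are below 0 in LPS_NZM against LPS and above 0 in LPS against Control, while H2-DMa and H2-DMb2 lie at 2.59 and 2.16 in the first and at -1.02 and -0.92 in the second.

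Class II genes are also strongly expressed by B cells and dendritic cells, so markers of these were read beside the results. The summed level of 10 B cell markers was 33.9 to 38.2 TPM in LPS_NZM, 11.9 to 15.2 TPM in LPS and 26.4 to 29.3 TPM in Control, the same order of groups as for the H2-DM genes. Cd22 read 9.89 to 12.1 TPM in LPS_NZM, 2.27 to 3.02 TPM in LPS and 8.50 to 9.76 TPM in Control, and Cd79b 9.40 to 10.8 TPM in LPS_NZM, 0.96 to 2.55 TPM in LPS and 5.39 to 6.05 TPM in Control. Not every marker had that order. Ebf1, with Cd22 and Cd79b the largest part of the sum, was highest in Control. It averaged 7.77 TPM in LPS_NZM, 4.95 TPM in LPS and 9.74 TPM in Control. Pax5 was highest in LPS, averaging 0.60 TPM in LPS_NZM, 1.09 TPM in LPS and 0.26 TPM in Control. The defining marker Cd79a stayed low, at 1.11 to 3.05 TPM in LPS_NZM and 0.69 to 1.34 TPM in both LPS and Control. In LPS_NZM against LPS 3 of 7 tested B cell markers were higher and 1 lower (60.4% and 16.9% of all tested genes). In LPS against Control 1 was higher and 3 lower (15.2% and 65.6% of all tested genes). None of the 10 was at 0 in all libraries of a BMDM group.

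The summed level of 12 dendritic cell markers was 286 to 290 TPM in LPS_NZM, 380 to 390 TPM in LPS and 213 to 236 TPM in Control, another order than that of the H2-DM genes. Within it, Batf3 read 30.3 to 33.3 TPM in LPS_NZM, 0 to 0.28 TPM in LPS and 0.85 to 2.53 TPM in Control, and Itgax 61.8 to 64.4 TPM in LPS_NZM, 23.3 to 24.4 TPM in LPS and 20.8 to 25.02 TPM in Control. The defining marker Zbtb46 read 4.20 to 5.67 TPM in LPS_NZM, 1.11 to 1.78 TPM in LPS and 1.58 to 2.32 TPM in Control, and Flt3 stayed at 0.54 TPM or less. Of 8 tested, 3 were higher and 4 lower in LPS_NZM against LPS, beside 60.4% and 16.9% of all tested genes. The 3 were Batf3, Itgax and Zbtb46. The 4 were Ccl22 (15.1 to 17.5 TPM in LPS_NZM, 125 to 134 TPM in LPS and 2.08 to 2.70 TPM in Control), Ccr7 (1.58 to 1.95 TPM in LPS_NZM, 20.2 to 22.8 TPM in LPS and 1.32 to 1.69 TPM in Control), Cacnb3 (-0.55) and Fscn1 (-0.23). Ccl22 alone differed by more between LPS_NZM and LPS than the sums did. The 11 macrophage markers summed to 28409 to 28902 TPM in LPS_NZM, 24088 to 24249 TPM in LPS and 33134 to 35321 TPM in Control. Of the remaining lists, 4 endothelial markers summed to 74.8 to 78.4 TPM in LPS_NZM, 35.5 to 39.7 TPM in LPS and 40.6 to 42.3 TPM in Control. T and NK cell markers summed to 23.1 to 33.1 TPM in LPS_NZM, 17.6 to 19.0 TPM in LPS and 21.1 to 48.7 TPM in Control, and neutrophil markers to 1934 to 2323 TPM in LPS_NZM, 2221 to 2444 TPM in LPS and 1488 to 1682 TPM in Control. Stromal markers summed to 2439 to 2542 TPM in LPS_NZM, 2289 to 2496 TPM in LPS and 2843 to 3060 TPM in Control. The part of these cells in the class II results was not tested.

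In BMSC, 8 of the 9 genes lay at or near 0. Their 48 values ran from 0 to 0.53 TPM, 18 of them were listed at 0, and H2-Oa was listed at 0 in all 6 libraries. Cd74, at 498 to 699 TPM in BMDM, read 0.53, 0.30 and 0.41 TPM in Aged_NZM, and 0.35, 0.15 and 0.15 TPM in Aged. The exception was H2-DMa, at 11.9, 12.8 and 10.95 TPM in Aged_NZM, and 9.45, 9.56 and 10.4 TPM in Aged. Its partners H2-DMb1 (0 to 0.18 TPM) and H2-DMb2 (0.07 to 0.33 TPM) and its client chains were too low to be tested. The level of H2-DMa was 13.0 to 17.0 TPM in the LPS group of BMDM and 9.45 to 12.8 TPM in BMSC. These ranges lay side by side, while BMDM read higher in Control (29.2 to 33.0 TPM) and LPS_NZM (91.7 to 100.2 TPM).

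Aged_NZM against Aged asks what NZM changed in BMSC that had received H2HO. H2-DMa, the only member tested, was higher in Aged_NZM by 0.26 (SE 0.0731, adjusted p = 0.011; 0.41 after centring, adjusted p = 0.00114), with groups that did not overlap. Of all 13865 genes tested, 70.5% were called (21.6% higher and 48.9% lower), with a median change of -0.18, and 66.5% after centring (31.1% higher and 35.4% lower). Without Aged_NZM replicate 2 the change was 0.21 (adjusted p = 0.0497). The overlapping gene Brd2 read 171 to 177 TPM in Aged_NZM and 278 to 298 TPM in Aged, the opposite direction to H2-DMa. Reads shared between them cannot be told apart without knowing how strand was used.

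The other parts of the pathway were not all silent in BMSC. The counts below stand beside 21.6% of all tested genes higher and 48.9% lower in Aged_NZM (31.1% and 35.4% after centring). Rfx5, the DNA-binding subunit of RFX, read 10.7 to 16.6 TPM in BMDM and 29.6 to 36.8 TPM in BMSC. Nfya, a subunit of NF-Y, read 61.3 to 118 TPM in BMDM and 34.95 to 63.3 TPM in BMSC, while Ciita read 0.84 to 5.23 TPM in BMDM and 0.05 to 0.14 TPM in BMSC. Of 16 tested transcription and upstream genes, 5 were higher and 6 lower in Aged_NZM (7 and 3 after centring), led by Il4ra (0.95), Nfya (-0.78), Irf1 (0.55), Jak2 (0.54) and Rfxank (-0.39). Of 11 processing genes 6 were higher and 2 lower (9 and 1 after centring), led by the cathepsin inhibitor gene Cst3 (0.61), Unc93b1, a chaperone of endosomal receptors (0.55), and Lgmn (0.50). Of 6 turnover genes and surface partners 3 were higher and 3 lower (3 and 2 after centring), with Cd53 at 0.53 TPM in Aged_NZM and 5.12 TPM in Aged (-2.0). Among 9 class I genes 7 were called higher and 2 lower (7 and 0 after centring), led by Tap2 (1.03), Psmb8 (0.85) and Psmb9 (0.71). Markers moved as well, with all 9 tested stromal markers higher in Aged_NZM (summed level 6305 to 6317 TPM in Aged_NZM and 2751 to 2855 TPM in Aged), and their part in these results was not tested.

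Whether the NZM response differed between the cell types was tested in a fit of all 15 libraries, as the change in LPS_NZM against LPS minus that in Aged_NZM against Aged. The model drugs differ too, so the cell type and the pretreatment cannot be told apart. H2-DMa, the only member with a level above 1 TPM in both cell types, changed more in BMDM (difference 2.33, SE 0.121, adjusted p = 3.37e-10; 1.71 after centring, adjusted p = 2.19e-08). Of all 16696 genes in that fit, 72.0% were called (54.8% higher and 17.2% lower), and 68.6% after centring (28.7% higher and 39.9% lower). The other 8 members read at most 0.53 TPM in BMSC and entered the fit only through BMDM. No response of theirs could be measured in BMSC, so their values in that fit restate the change in BMDM and no difference between the cell types is read from them.

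The members did not share a single pattern over the 9 BMDM libraries, which fall into the 3 treatment groups, so that a correlation over them mostly restates the group means. Pearson's r of log2(TPM + 1) was 0.99 between H2-DMa and H2-DMb2, 0.976 between H2-DMa and H2-Aa, 0.933 between Ciita and Cd74, 0.706 between Ciita and H2-DMb1, and 0.487 between H2-Ab1 and H2-DMb1. Among 10342 other genes the patterns most like that of Ciita were those of Ceacam19 (0.995), Azin2 (0.992), Jund (0.989), Cemip (0.988) and Secisbp2l (0.987). Closest to H2-Ab1 were Wsb2 (0.970), Rrp7a (0.944), Gapdh-ps15 (0.942), Cd52 (0.938) and Pisd (0.938). Closest to Cd74 were Snd1 (0.990), Tubd1 (0.987), Gprc5c (0.982), Plxnd1 (0.981) and Gab2 (0.979). Ceacam19 averaged 12.5 TPM in LPS_NZM, 1.10 TPM in LPS and 0.48 TPM in Control, and Plxnd1 averaged 227 TPM in LPS_NZM, 51.4 TPM in LPS and 57.7 TPM in Control.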

How the data were processed

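RNA of 15 libraries was sequenced from polyadenylated RNA, and the values the authors deposited are TPM in 1 table, for 56979 Ensembl identifiers. Per the submitters' processing notes, fastp, HISAT2, StringTie, RSEM and the build GRCm39 were used; versions and annotation are not given in the sources used here. TPM hold no counts, so depth is unknown and no counting interval is given. A name table gave symbols to 52072 identifiers. Groups follow the sample titles. limma 3.58.1 (R 4.3.3) was run on log2(TPM + 1) with a mean-variance trend, two-sided, over genes with TPM of at least 1 in at least 3 libraries of the fit, with Benjamini-Hochberg adjustment over all of them and calls at 0.05. The 9 BMDM and the 6 BMSC libraries were fitted separately, and all 15 for the difference of NZM responses. Ratios were tested with exact permutation tests (scipy 1.17.1). Alternatives were a pseudocount of 0.1, no filter, TPM of at least 5, median centring, quantile normalization, no trend, other libraries in the fit, a replicate block and leaving out each library. The procedure was tested on simulated data for the comparisons other than the difference of NZM responses. In that test few genes were changed, raised and lowered alike. A shift of most genes in the same direction was not simulated, so the test does not cover the choice of scale. All 126 list genes were matched. Up to 5 called genes per list and comparison with the largest absolute change are named. Results of 2 list genes are not reported here; both stay in the counts and sums of their lists. Members and lists were chosen with earlier results of these data known. No library was left out.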

Additional observations from a re-analysis of the deposited data

Results flagged for a closer look

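The NZM response of H2-DMa differed between BMDM and BMSC in the fit of all 15 libraries, with the change in LPS_NZM against LPS larger than that in Aged_NZM against Aged. The log2 difference, BMDM minus BMSC, was 2.33 (1.71 after median centring). H2-DMa read 91.7 to 100.2 TPM in LPS_NZM and 13.0 to 17.0 TPM in LPS, and 10.95 to 12.8 TPM in Aged_NZM and 9.45 to 10.4 TPM in Aged. It was the only member tested in both cell types. The treatment before NZM also differs between the cell types, so cell type and pretreatment cannot be told apart.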

How the results depend on the processing

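H2-DMa, H2-DMb1 and H2-DMb2 kept direction and call in each BMDM comparison under all 15 alternatives, and Ciita in both LPS_NZM comparisons under all 14 that could test it (with TPM of at least 5 it was not tested). In LPS_NZM against LPS their log2 changes ran from 2.12 to 2.67, 1.05 to 1.60, 1.70 to 2.74 and 0.83 to 1.75. In LPS against Control the 1 member called higher became 0 with no filter, without the trend, with all libraries in 1 fit and with the replicate block, 6 with median centring, and 0 to 1 when single libraries were left out. Median centring turned H2-Aa (0.42), H2-Eb1 (0.47) and Cd74 (0.53), and quantile normalization H2-Ab1 (-0.028); quantile normalization also called H2-Eb1 (-0.14) and Cd74 (-0.30) lower, the opposite direction to centring, and Ciita (0.53) higher. Leaving out single libraries moved Cd74 over -0.065 to 0.017 and H2-Oa over -0.11 to 0.14, both without a call. In LPS_NZM against LPS, median centring gave 4 higher and 3 lower, with H2-Aa -0.092, H2-Ab1 -0.30, H2-Eb1 -0.17 and Cd74 -0.069. Quantile normalization called H2-Oa lower there and kept H2-Aa, H2-Ab1, H2-Eb1 and Cd74 called higher. In LPS_NZM against Control no direction or call changed. In Aged_NZM against Aged, 2 members were higher with all libraries in 1 fit, where Cd74, at 0.15 to 0.53 TPM in BMSC, passed the filter through its BMDM level alone (0.22, adjusted p = 0.0135), so nothing is read from that call. For the difference of NZM responses, in which 8 of the 9 members could not be measured in BMSC, 6 were called higher and 0 lower; median centring gave 4 lower (H2-Aa -0.21, H2-Eb1 -0.31, Cd74 -0.44, H2-Oa -0.98) and turned H2-Ab1 (-0.36) without a call, a pseudocount of 0.1 turned Cd74 (-0.33), and with single libraries left out 6 to 7 were higher. H2-Ab1 in LPS_NZM against LPS lost its call with all libraries in 1 fit (adjusted p = 0.183), and H2-Eb1 in the difference of responses with a pseudocount of 0.1 (0.389) and quantile normalization (0.0796). The cause of these changes was not tested. The labels do not say that replicate numbers pair libraries, and over 12 same-numbered pairs the correlation of deviations was -0.0756 to 0.199. With the replicate block H2-Ab1 in LPS against Control missed the threshold (adjusted p = 0.0562), the only call of a member that the block changed. Levels under about 1 TPM (H2-Oa, and 8 members in BMSC) limit what could be tested.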
